A study of Mus musculus with 4 samples.

Results

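Proteasome genes were taken as the genes of the expression table whose symbol starts with Psma, Psmb, Psmc, Psmd, Psme, Psmf or Psmg. This gave 50 of 14435 genes, of which 49 passed the filter on low counts. The immunoproteasome set holds Psmb8, Psmb9, Psmb10, Psme1 and Psme2, and the other 45 genes make up the rest. RNA was sequenced from RAW264.7, a mouse cell line with macrophage features, after the cells were treated with E. coli lipopolysaccharide (LPS) for 12 hours. The shMettl3 group had 2 libraries from cells transfected with an shRNA targeting Mettl3, which encodes the methyltransferase that places m6A marks on RNA. The Control group had 2 libraries from cells transfected with a nonspecific shRNA. Every library came from LPS-treated cells, and no untreated cells are part of the comparison. The labels name no shRNA sequence and do not say whether the cells were a pool or a clone, so Mettl3 loss and any other difference between the 2 transfections cannot be told apart. For shMettl3 replicate 2 a single field names METTL4, while its title names Mettl3.

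The proteasome degrades proteins tagged with ubiquitin. Its barrel-shaped 20S core has outer rings of alpha subunits and inner rings of beta subunits, and the subunits encoded by Psmb5, Psmb6 and Psmb7 hold the active sites. The 19S regulatory particle, built from ATPases (Psmc genes) and non-ATPase subunits (Psmd genes), recognises, unfolds and feeds substrates into the core. Interferon and inflammatory signals induce Psmb8, Psmb9 and Psmb10, whose products replace those of Psmb5, Psmb6 and Psmb7 in newly assembled cores, and also Psme1 and Psme2, whose products form the PA28 activator ring. The resulting immunoproteasome is known for producing peptides presented on MHC class I in macrophages and other immune cells.

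Total estimated counts were 16342313 and 16767622 in the shMettl3 libraries and 17142599 and 17193639 in the Control libraries. Mettl3 (Entrez gene 56335) was at 11.5 and 11.2 CPM (counts scaled to a common library total) in the shMettl3 libraries, against 30.9 and 29.9 CPM in the Control libraries, a log2 fold change of -1.42 with a standard error (SE) of 0.10 (edgeR adjusted p = 1.58e-06). P-values come from the quasi-likelihood test of edgeR and were adjusted by the Benjamini-Hochberg method over all tested genes, and a gene with an adjusted p below 0.05 is described as called, higher or lower. Mettl4, the gene named in a field of shMettl3 replicate 2, was not called (log2 fold change -0.04, SE 0.09, edgeR adjusted p = 0.729). It was at 24.4 and 24.8 CPM in the shMettl3 libraries, against 26.4 and 24.3 CPM in the Control libraries. Of 10 macrophage markers 6 were lower and 1 was higher by the same test, while 22.3% of all tested genes were lower and 21.4% higher. Their summed level was 11866 and 11811 TPM (a level scaled by transcript length and library total) in the shMettl3 libraries, against 17531 and 16956 TPM in the Control libraries. Lyz2 weighs most in this sum, with means of 5867 TPM in the shMettl3 group and 9822 TPM in the Control group. The markers did not move together. The log2 fold change was -1.79 for Adgre1, -1.14 for Itgam and -1.04 for Csf1r, all called lower, and 0.57 for Ptprc, called higher. Spi1 (-0.06), Fcgr3 (0.20) and Mrc1 (-1.04, at few counts) were not called. The summed level of the fibroblast markers was 1.10 and 0.31 TPM in the shMettl3 libraries, against 0 and 0.05 TPM in the Control libraries, and that of the lymphocyte markers was at most 0.16 TPM in each library. Of the defining fibroblast genes, Col1a1, Col1a2 and Col3a1 had 17, 15 and 15 counts in shMettl3 replicate 1 and at most 1 in replicate 2, and were at 0 in the Control libraries. Dcn, from the same list, had 4 and 5 counts in the shMettl3 libraries, against 0 and 1 in the Control libraries. The part of these markers in the results below was not tested. In bulk RNA, fewer cells of a type and less RNA per cell cannot be told apart. Whether replicate libraries stem from separate cultures is not stated, and p-values therefore reflect the spread between these samples alone, which may be technical.

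Most proteasome genes were not called between shMettl3 and Control cells. Of the 49 tested members, 5 rose and 9 fell at an adjusted p below 0.05, and 35 were not called. The called share was 28.6%, while 43.7% of all 11035 tested genes were called, 21.4% as higher and 22.3% as lower. The middle of the distribution was also narrower, with quartiles of the log2 fold change at -0.18 and 0.05 for the members and at -0.24 and 0.28 for all tested genes. The median size of the change, regardless of sign, was 0.14 for the members and 0.26 for all tested genes on the log2 scale. The members and all tested genes were not matched for expression level, and the part of level in the narrower spread was not tested. The median log2 fold change was -0.07 for the members and 0.01 for all tested genes. With library size alone as the scaling the members' median was 0.02 and that of all genes 0.11. A change of scaling shifts all genes nearly alike. The distance of 0.09 between the medians could therefore hardly change, and its staying the same is no check of it. The members that rose were Psme1, Psma4, Psma8, Psmb1 and Psme2b. Those that fell were Psma5, Psma6, Psma7, Psmb4, Psmb5, Psmc2, Psmc3, Psmd4 and Psmd5. The CPM of the groups did not overlap for 32 members, with shMettl3 higher for 10 and lower for 22, while 73.4% of all tested genes had groups that did not overlap, 37.1% higher and 36.3% lower. The split of calls depends on the scaling, with 7 higher and 4 lower when library size alone was used.

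**Figure D1:**
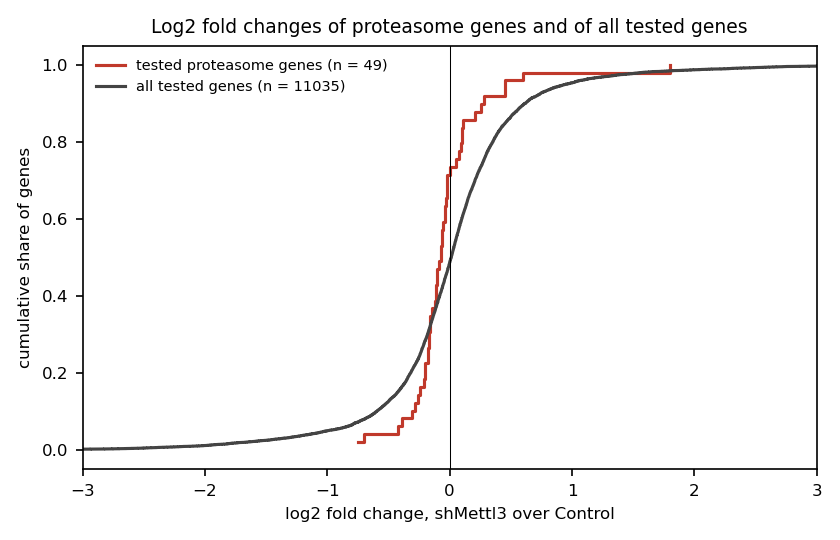
Cumulative share of genes (vertical axis) by log2 fold change, shMettl3 over Control (horizontal axis), for the 49 tested proteasome genes in red and all 11035 tested genes in grey. The red line is steeper around 0, with quartiles at -0.18 and 0.05, against -0.24 and 0.28 for all tested genes.

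A stricter test against a 1.5-fold change called 8.63% of all tested genes, 3.76% as higher and 4.87% as lower. It called 1 member, Psme2b, which was higher. Psme2b is a paralog of Psme2 expressed at a very low level, with estimated counts of 52.62 and 29.51 in the shMettl3 libraries, against 13.73 and 8.94 in the Control libraries. Its log2 fold change was 1.80 (SE 0.40), and edgeR's adjusted p against no change was 0.0041. The counts of Psme2b and of Psme2 are not whole numbers, so the authors' counting divided reads between genes, and the value of Psme2b is uncertain. Without shMettl3 replicate 1 its log2 fold change was 1.31 and was not called (edgeR adjusted p = 0.0578). It did not pass the 1.5-fold test without that library or without Control replicate 2.

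The members were transcribed at unlike levels, compared here per length as mean TPM over the 4 libraries. Psma6 was the most abundant at 636 TPM, followed by Psme2 at 549, Psmd8 at 548 and Psmb3 at 538 TPM. The last 3 of these lie close together, and their order is not resolved by their spread between libraries. The 14 standard alpha and beta subunits ran from 206 TPM (Psma3) to 636 TPM, and the 17 subunits of the 19S particle from 119 TPM (Psmd13) to 548 TPM. The assembly chaperones, which build the complex without staying in it, lay lower, between 21.4 TPM (Psmd9) and 74.6 TPM (Psmg4). At the bottom stood Psme4 at 19.7 TPM, the testis alpha subunit gene Psma8 at 12.5, Psmc3ip at 7.90 and Psme2b at 2.75 TPM. Psmc3ip carries the prefix but encodes a factor of homologous recombination, not a subunit, and it was not called (log2 fold change -0.06, SE 0.23). Psmb11, the beta subunit gene of the thymus, had 2 and 0 counts in the shMettl3 libraries, against 0 and 1 in the Control libraries, and was the only member below the filter. The summed level of all members was 11202 and 11387 TPM in the shMettl3 libraries, against 11050 and 11288 TPM in the Control libraries. These ranges overlap.

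Within the immunoproteasome set Psme1 rose and the remaining 4 genes were not called. Psme1, which encodes PA28 alpha, was at 179 and 170 CPM in the shMettl3 libraries, against 138 and 117 CPM in the Control libraries. Both shMettl3 libraries lay above both Control libraries, with a log2 fold change of 0.45 (SE 0.09, edgeR adjusted p = 0.00152). Psme2, the gene of its partner PA28 beta, was at 268 and 240 CPM in the shMettl3 libraries, against 276 and 254 CPM in the Control libraries. These ranges overlap, and Psme2 was not called, with a log2 fold change of -0.06 (SE 0.08). Its sign turned to 0.03 with library size as the scaling and to 0.06 with TPM. The level of Psme1 per level of Psme2, a ratio of TPM within each library that does not depend on the scaling, was 0.607 and 0.641 in the shMettl3 libraries, against 0.451 and 0.416 in the Control libraries. These ratios do not overlap, and this ratio was chosen after its values were seen.

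Psmb8, the inducible counterpart of Psmb5, was at 142 and 122 CPM in the shMettl3 libraries, against 120 and 97.9 CPM in the Control libraries. The groups did not overlap, but they were close, and Psmb8 missed the threshold at a log2 fold change of 0.28 (SE 0.11, edgeR adjusted p = 0.0752). Leaving out 1 library at a time gave 0.13 without Control replicate 2, 0.17 without shMettl3 replicate 1, 0.38 without shMettl3 replicate 2 and 0.42 without Control replicate 1, and the last 2 of these were called (edgeR adjusted p = 0.0269 and 0.00199), where a lone library is assumed to vary like the other group. Psmb8 was called in 8 of 15 alternative fits, among them those scaled by library size, upper-quartile factors, FPKM or TPM. Psmb9, the counterpart of Psmb6, was the least abundant of the set, at 27.4 and 21.8 CPM in the shMettl3 libraries, against 36.6 and 24.6 CPM in the Control libraries. The higher Control library stands apart and the other lies between the shMettl3 libraries (log2 fold change -0.31, SE 0.24, not called). Psmb9 was at -0.01 without Control replicate 1 (edgeR adjusted p = 0.955), -0.16 without shMettl3 replicate 2, -0.48 without shMettl3 replicate 1 and -0.58 without Control replicate 2, and of these only the last was called (edgeR adjusted p = 0.00278). Psmb10, the counterpart of Psmb7, was at 123 and 98.4 CPM in the shMettl3 libraries, against 112 and 78.5 CPM in the Control libraries. The groups overlap, and its log2 fold change of 0.21 (SE 0.24, not called) was -0.03 without Control replicate 2.

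Of the 3 standard catalytic genes Psmb5 fell and the others were not called. Psmb5, whose product carries the chymotrypsin-like site, was at 142 and 155 CPM in the shMettl3 libraries, against 178 and 211 CPM in the Control libraries. Neither group reached into the other, with a log2 fold change of -0.39 (SE 0.09, edgeR adjusted p = 0.00596). Without shMettl3 replicate 1 it was -0.32 and not called (edgeR adjusted p = 0.0722). On the log2 scale Psmb6, the gene of the caspase-like site, differed by -0.09 (SE 0.08) and Psmb7, the gene of the trypsin-like site, by -0.07 (SE 0.07). Neither was called, and both turned sign with library size as the scaling, to 0.01 and 0.02.

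**Figure D2:**
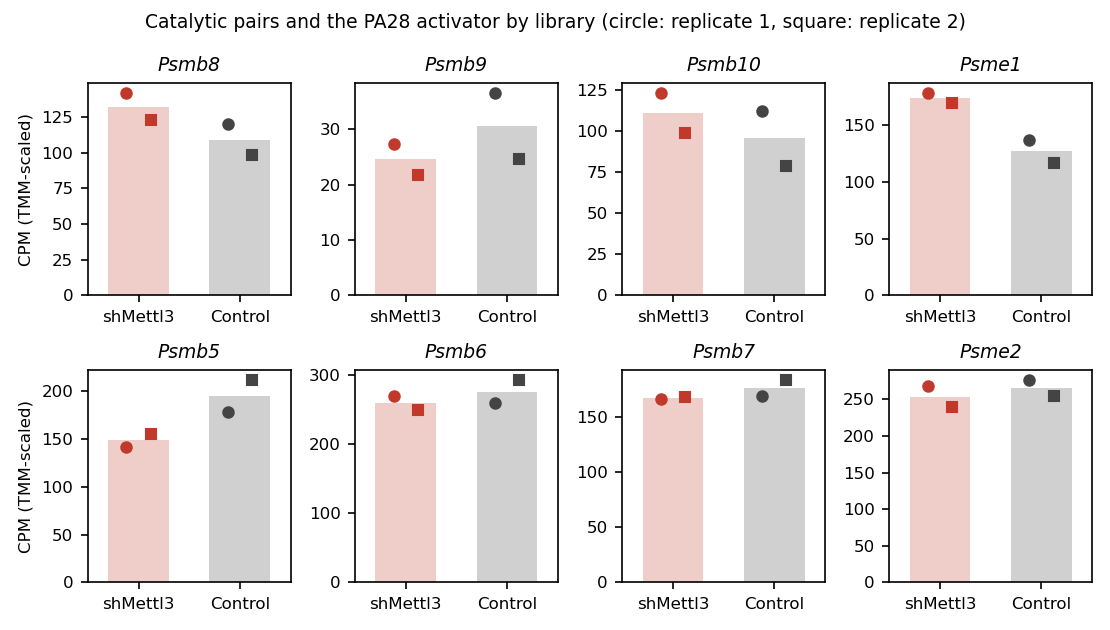
CPM scaled by TMM factors (vertical axes, from 0) in the shMettl3 and Control libraries. Bars are group means of 2 libraries, circles replicate 1 and squares replicate 2. The upper row has the immunoproteasome beta genes and Psme1, the lower row their standard counterparts and Psme2. Psme1 lay above its controls and Psmb5 below them in both libraries, while Psmb9, Psmb10, Psmb6 and Psme2 overlap between groups.

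Ratios between each inducible gene and its standard counterpart were taken within each library on TPM. Psmb8 over Psmb5 was 0.677 and 0.528 in the shMettl3 libraries, against 0.450 and 0.311 in the Control libraries, a difference of 0.68 on the log2 scale. The groups of this ratio do not overlap, with an exact two-sided permutation p of 0.333, the smallest that 2 against 2 libraries can give. Psmb9 over Psmb6 was 0.134 and 0.116 in the shMettl3 libraries, against 0.188 and 0.111 in the Control libraries (exact permutation p = 1), and its log2 difference of -0.21 turned to 0.17 without Control replicate 1. Psmb10 over Psmb7 was 0.528 and 0.420 in the shMettl3 libraries, against 0.477 and 0.306 in the Control libraries (exact permutation p = 0.667), and its log2 difference of 0.30 turned to -0.02 without Control replicate 2. In this family of 3 ratios no p could fall below 0.333 before adjustment. The inducible genes together held 28.5% and 24.9% of the summed TPM of the 6 catalytic genes in the shMettl3 libraries, against 26.2% and 18.8% in the Control libraries, and these ranges overlap.

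The median log2 fold change of the immunoproteasome set was 0.21, against -0.09 for the other tested members, a difference of 0.31. This difference rests largely on Control replicate 2. It was 0.06 without that library, 0.55 without Control replicate 1, 0.14 without shMettl3 replicate 1 and 0.47 without shMettl3 replicate 2. Called members were 1 of 5 in the set and 13 of 44 among the others (29.5%), against 43.7% of all tested genes.

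The 5 immunoproteasome genes had wider median gaps between libraries of the same group than the other members, a difference that was not tested. In log2 CPM, replicate 1 was above replicate 2 for all 5 genes in the shMettl3 group and for all 5 in the Control group. Among the other 44 tested members replicate 1 was the higher for 14 genes in the shMettl3 group and for 10 in the Control group. Over all tested genes replicate 1 was the higher for 48.3% in the shMettl3 group and for 49.3% in the Control group, so the other members lay below that split and the immunoproteasome genes above it. The median gap, regardless of sign, was 0.21 in the shMettl3 group and 0.29 in the Control group for the immunoproteasome genes, against 0.05 and 0.09 in the same groups for the other members. Over all tested genes it was 0.09 in the shMettl3 group and 0.12 in the Control group. Psmb9 had the widest gaps of the set, 0.33 in the shMettl3 group and 0.57 in the Control group, and Psme1 the narrowest in the shMettl3 group at 0.07. Of the 14 tested genes of class I peptide supply and loading, replicate 1 was the higher for 11 in the shMettl3 group and for 13 in the Control group, and for 10 in both. Their median gap was 0.09 in the shMettl3 group and 0.13 in the Control group, close to that of all tested genes. The widest gap in this list was that of Tap1, a peptide transporter subunit gene, at 0.33 in the shMettl3 group and 0.47 in the Control group, while Calr, Pdia3, Tpp2 and Nrd1 had gaps of opposite sign in the 2 groups. Of the 13 regulators of proteasome genes, replicate 1 was the higher for 7 in the shMettl3 group and for 6 in the Control group. These lists were compared after their values were seen.

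**Figure D3:**
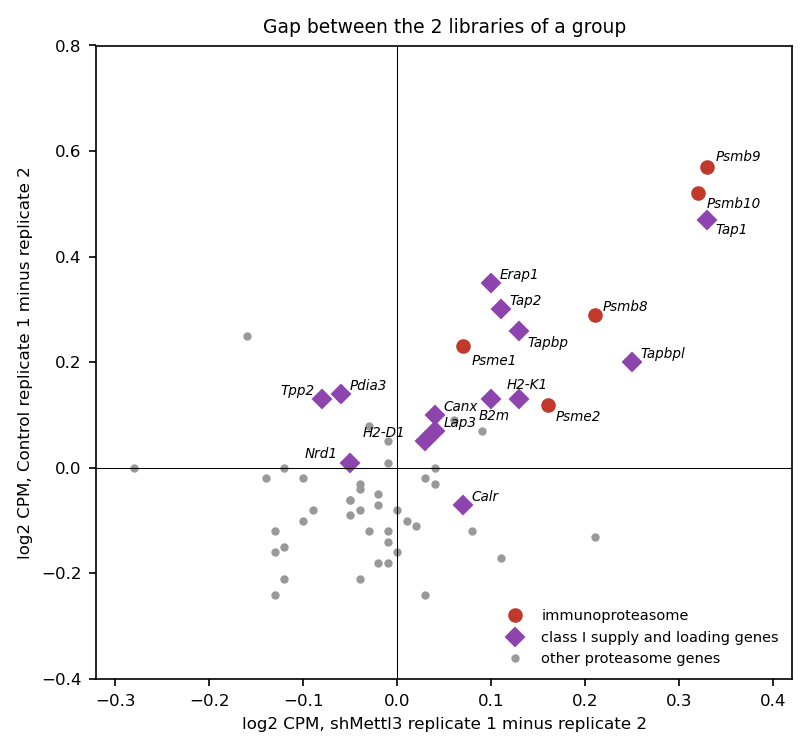
Log2 CPM of replicate 1 minus replicate 2 in the shMettl3 group (horizontal axis) and in the Control group (vertical axis). Red circles are the 5 immunoproteasome genes, purple diamonds the 14 tested genes of class I peptide supply and loading and grey dots the other tested proteasome genes, except Psme2b and Psmc3ip, which have few counts. All red points lie above 0 on both axes, with Psmb9 at 0.33 and 0.57, and 10 of the 14 purple points do.

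Promoter windows of 4 of the 5 immunoproteasome genes are shown, all but that of Psmb10, because Psme1 and Psme2 lie near each other on chromosome 14 and Psme1 alone was called, and because Psmb8 and Psmb9 lie in the same stretch of the MHC region. Each window runs from 250 bases before to 50 bases after the transcription start, 5′ to 3′ on the gene's strand, from RefSeq on GRCm38.p6, a later build than the mm9 of the submitters' processing notes. Capitals mark matches, on either strand, to 5 motifs that a search looked for. These were the interferon-stimulated response element (ISRE) core, which is a pair of GAAA runs set apart by 2 bases of any kind, the gamma-activated site (GAS) TTCNNNGAA, the CCAAT box, the antioxidant response element TGACNNNGC and the NF-kB site.
Psme1 (chr14:55578244-55578543, plus strand): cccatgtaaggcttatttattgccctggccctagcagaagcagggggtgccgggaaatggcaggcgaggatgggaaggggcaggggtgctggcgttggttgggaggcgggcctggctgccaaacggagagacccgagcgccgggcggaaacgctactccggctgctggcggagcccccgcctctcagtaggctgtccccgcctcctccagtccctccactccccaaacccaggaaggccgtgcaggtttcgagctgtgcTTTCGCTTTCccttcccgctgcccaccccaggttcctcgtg
Psme2 (chr14:55591052-55591351, minus strand): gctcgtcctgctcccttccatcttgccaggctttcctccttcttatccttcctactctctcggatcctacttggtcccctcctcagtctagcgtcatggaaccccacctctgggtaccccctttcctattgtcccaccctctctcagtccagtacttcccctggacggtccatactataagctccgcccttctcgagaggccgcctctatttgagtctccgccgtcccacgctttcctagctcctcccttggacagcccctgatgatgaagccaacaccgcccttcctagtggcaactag
Psmb8 (chr17:34197945-34198244, plus strand): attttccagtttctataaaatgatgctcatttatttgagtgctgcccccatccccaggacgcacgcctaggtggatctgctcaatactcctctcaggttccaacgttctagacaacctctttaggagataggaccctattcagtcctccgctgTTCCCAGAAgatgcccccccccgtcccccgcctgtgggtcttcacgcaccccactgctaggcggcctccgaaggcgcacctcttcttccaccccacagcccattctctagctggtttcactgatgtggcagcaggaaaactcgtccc
Psmb9 (chr17:34187281-34187580, minus strand): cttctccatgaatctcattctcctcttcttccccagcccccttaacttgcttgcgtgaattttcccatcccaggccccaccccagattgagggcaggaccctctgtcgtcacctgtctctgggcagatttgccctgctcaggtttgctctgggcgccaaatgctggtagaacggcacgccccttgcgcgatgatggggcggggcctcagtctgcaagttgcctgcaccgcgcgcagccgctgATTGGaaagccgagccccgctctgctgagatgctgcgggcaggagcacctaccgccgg
The Psme1 window holds an ISRE core match that begins 9 bases after the first transcribed base, and the Psme2 window holds no match to any of these motifs. The Psmb8 window holds a GAS match, and that of Psmb9 a CCAAT box. The Psmb9 window shares 275 bases with the window of Tap1, which is transcribed in the other direction. A match is a description of letters and not evidence of binding.

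RefSeq windows were found for 42 of the 50 members, 45 windows in all. An ISRE core was present in 5 of the 45 (11.1%), those of Psme1, Psmb3, Psmd4, Psmd9 and Psmg4, against 3.44% of all 32851 windows in the table. A CCAAT box was in 33.3% of the members' windows and 37.4% of all windows. The antioxidant response element, to which the proteasome gene activators NFE2L1 and NFE2L2 bind, was in 13.3% of members' windows and 12.4% of all, but in 14.4% of the windows of tested genes. The NF-kB site was in 13.3% of members' windows and 8.46% of all (10.3% for tested genes), and GAS in 6.67% of members' windows and 8.3% of all (6.82% for tested genes). The ISRE core was in 3.36% and the CCAAT box in 38.4% of the windows of tested genes.

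In the alpha ring, which forms the gate of the core, 2 of 8 subunit genes were called higher and 3 lower, while 21.4% of all tested genes were called higher and 22.3% lower. Psma6 showed the largest fall of any member. It was at 259 and 253 CPM in the shMettl3 libraries, against 395 and 468 CPM in the Control libraries, with a wide gap between the groups (log2 fold change -0.75, SE 0.09, edgeR adjusted p = 5.50e-05). Psma5 fell to 190 and 188 CPM in the shMettl3 libraries, against 244 and 263 CPM in the Control libraries (-0.42, SE 0.07). Psma7 was at 156 and 157 CPM in the shMettl3 libraries, against 176 and 200 CPM in the Control libraries (-0.26, SE 0.08), a call that was lost with library size, FPKM or TPM as the scale and without either shMettl3 library.

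Psma4, another subunit gene of this ring, rose. It was at 257 and 273 CPM in the shMettl3 libraries, against 189 and 200 CPM in the Control libraries (log2 fold change 0.45, SE 0.07, edgeR adjusted p = 5.83e-04). The level of Psma4 per level of Psma6, in TPM within a library, was 0.886 and 0.964 in the shMettl3 libraries, against 0.428 and 0.380 in the Control libraries. This ratio was chosen after the values were seen, and its groups lie far apart. Psma8, which in the testis replaces Psma7 in the ring, rose at a low level, to 14.2 and 14.7 CPM in the shMettl3 libraries, against 9.33 and 9.76 CPM in the Control libraries (0.60, SE 0.12). It stayed a minor partner, at 0.0482 and 0.0487 of the Psma7 TPM in the shMettl3 libraries, against 0.0275 and 0.0254 in the Control libraries. Psma1, Psma2 and Psma3 were not called, with log2 fold changes between -0.17 and 0.00.

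Among the beta subunit genes without an active site, Psmb1 rose and Psmb4 fell. Psmb1 was at 218 and 214 CPM in the shMettl3 libraries, against 179 and 182 CPM in the Control libraries (log2 fold change 0.26, SE 0.07). Psmb4 was at 230 and 229 CPM in the shMettl3 libraries, against 268 and 288 CPM in the Control libraries (-0.28, SE 0.07). Both differences exceed the gaps within the groups, with an edgeR adjusted p of 0.0105 for Psmb1 and 0.00966 for Psmb4. Both calls were lost when either shMettl3 library was left out, with adjusted p of 0.0975 or more for Psmb1 and of 0.106 or more for Psmb4 by edgeR, and that of Psmb4 also with library size or TPM as the scale. Psmb2 (0.09) and Psmb3 (-0.17) were not called.

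Of 17 subunit genes of the 19S particle 3 fell and none rose, while 22.3% of all tested genes were called lower and 21.4% higher. With TMM scaling 16 of the 17 had a log2 fold change below 0, but 11 with library size and 8 with TPM. Under each of these scalings 16 of the 17 lay below the median of all tested genes. Scaling shifts all genes nearly alike, so that count could hardly change. When a library was left out, 14 to 16 lay below that median. Psmd4, whose product is a receptor for ubiquitin chains, was at 147 and 148 CPM in the shMettl3 libraries, against 228 and 251 CPM in the Control libraries. The groups lie far apart, and no member had a smaller adjusted p (log2 fold change -0.70, SE 0.07, edgeR adjusted p = 2.82e-05). The remaining 10 non-ATPase subunit genes were not called and ranged from -0.20 (Psmd3) to 0.08 (Psmd1), with the deubiquitinase gene Psmd14 at -0.02. All 6 ATPase genes had log2 fold changes below 0 with TMM, from -0.24 (Psmc3) to -0.04 (Psmc6), and in each the groups did not overlap. Groups that do not overlap in this direction were found for 36.3% of all tested genes. Psmc3 was at 152 and 158 CPM in the shMettl3 libraries, against 179 and 187 CPM in the Control libraries (SE 0.07). It was called (edgeR adjusted p = 0.0169) as was Psmc2 (-0.21, SE 0.08, adjusted p = 0.0466), and the call on Psmc3 was lost with library size, FPKM or TPM as the scale and without either shMettl3 library. The call on Psmc2 was lost in 12 of 15 alternative fits, DESeq2 and limma-voom among them. The summed level of the 17 genes was 3815 and 3949 TPM in the shMettl3 libraries, against 3852 and 3939 TPM in the Control libraries, and these ranges overlap.

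Windows of Psma4, which rose, and of Psmd4, which fell, are shown in the same format, with the same motifs in capitals.
Psma4 (chr9:54950609-54950908, plus strand): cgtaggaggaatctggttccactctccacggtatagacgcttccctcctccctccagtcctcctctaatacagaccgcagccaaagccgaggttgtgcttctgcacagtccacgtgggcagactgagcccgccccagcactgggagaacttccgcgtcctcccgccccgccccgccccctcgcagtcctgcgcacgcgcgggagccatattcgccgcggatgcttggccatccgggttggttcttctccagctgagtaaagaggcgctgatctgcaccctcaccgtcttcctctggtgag
Psmd4 (chr3:95042565-95042864, minus strand): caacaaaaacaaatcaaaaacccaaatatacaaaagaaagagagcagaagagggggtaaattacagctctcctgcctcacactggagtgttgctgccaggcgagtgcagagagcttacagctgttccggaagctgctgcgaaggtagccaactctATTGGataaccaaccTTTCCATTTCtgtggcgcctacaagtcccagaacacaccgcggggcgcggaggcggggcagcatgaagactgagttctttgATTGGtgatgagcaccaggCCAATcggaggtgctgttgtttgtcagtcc
The Psma4 window has no match to the 5 motifs. The Psmd4 window has an ISRE core and 3 CCAAT boxes.

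**Figure D4:**
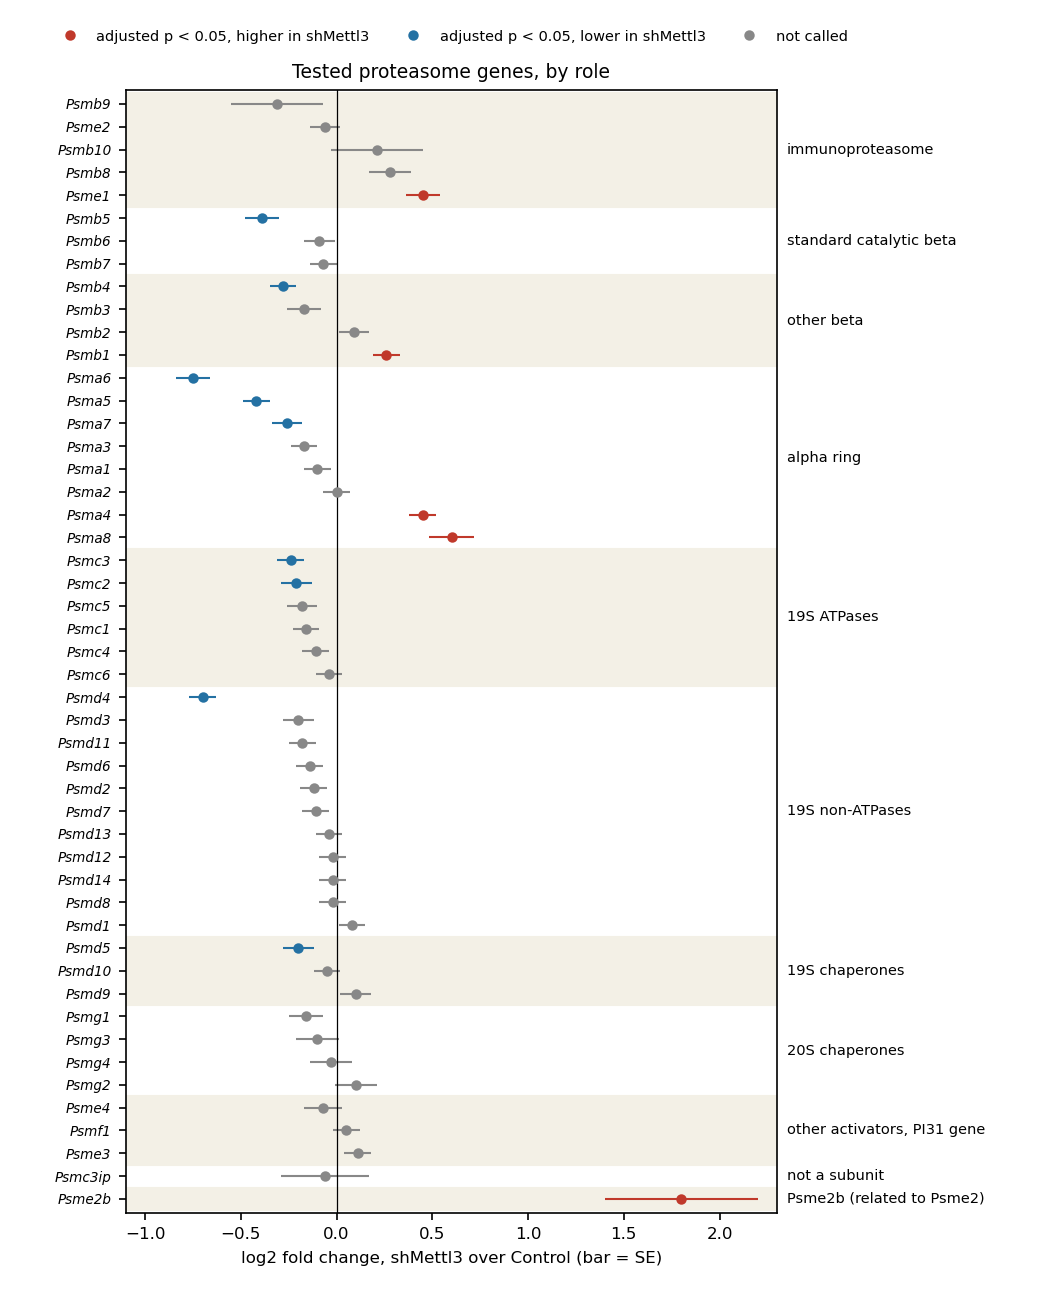
Log2 fold change, shMettl3 over Control (horizontal axis), with its SE, for each of the 49 tested members, grouped by role down the page. Red points are called higher, blue points called lower and grey points not called. Most points lie within 0.25 of 0, with Psma6 at -0.75 and Psmd4 at -0.70 on the left and Psme2b at 1.80 on the right.

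Of the 10 genes of assembly chaperones, other activators and the inhibitor, 1 was called, while 43.7% of all tested genes were called. Of the 3 chaperone genes of the 19S particle Psmd5 fell (-0.20, SE 0.08, edgeR adjusted p = 0.0498), close to the threshold and lost in 12 of 15 other fits. Psmd9 and Psmd10 were at 0.10 and -0.05. The 4 chaperone genes of the 20S core, Psmg1 to Psmg4, were between -0.16 and 0.10 and none was called. Psme3, which encodes the nuclear activator PA28 gamma, was at 328 and 309 CPM in the shMettl3 libraries, against 303 and 289 CPM in the Control libraries (0.11, SE 0.07, not called). Psme3 was called higher in 4 of 15 alternative fits, those scaled by library size (0.20), FPKM (0.19) or TPM (0.25 with either pseudocount). Psme4, the gene of the activator PA200, had a log2 fold change of -0.07 (SE 0.10), which turned to 0.03 with library size and to 0.08 with TPM. Psmf1, the gene of the proteasome inhibitor PI31, was at 49.4 and 48.0 CPM in the shMettl3 libraries, against 47.2 and 47.1 CPM in the Control libraries (0.05, SE 0.07, not called).

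Genes that work with the proteasome but lie outside the prefix rule were read from 4 lists. Among 18 tested proteasome-associated factors 3 rose and 5 fell, 44.4% in all, close to the 43.7% of all tested genes. Uchl5, a deubiquitinase of the 19S particle, was at 61.6 and 61.4 CPM in the shMettl3 libraries, against 41.8 and 45.3 CPM in the Control libraries (0.50, SE 0.08). Ubqln4, whose product carries ubiquitinated substrates to the proteasome, fell (-0.38, SE 0.08). Pomp, the chaperone gene of core assembly, which was chosen after its values were seen, was not called (-0.18, SE 0.08).

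Among 13 regulators of proteasome genes 2 rose and 1 fell (23.1%, against 43.7% of all tested genes). Ngly1, which encodes the enzyme that strips glycans from NFE2L1, was at 6.66 and 7.82 CPM in the shMettl3 libraries, against 11.9 and 14.6 CPM in the Control libraries (-0.87, SE 0.15). Nfe2l1 itself (-0.07) and Nfe2l2 (-0.15), both chosen after their values were seen, were not called. Irf1, an interferon-induced activator of immunoproteasome genes, was at 32.4 and 26.7 CPM in the shMettl3 libraries, against 22.3 and 19.1 CPM in the Control libraries (0.51, SE 0.12, edgeR adjusted p = 0.00597). The call on Irf1 was lost without shMettl3 replicate 1 (edgeR adjusted p = 0.0664). Rela, an NF-kB subunit gene, rose (0.27, SE 0.07), though not without shMettl3 replicate 2 (edgeR adjusted p = 0.119).

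Among 14 genes of class I peptide supply and loading 4 rose and 1 fell (35.7%, against 43.7% of all tested genes). The gene that fell was H2-D1, a class I heavy chain gene (-0.20, SE 0.07, edgeR adjusted p = 0.032), which was named after its value was seen and whose counts are not whole numbers. Tpp2, a peptidase that trims proteasome products, was at 276 and 292 CPM in the shMettl3 libraries, against 184 and 168 CPM in the Control libraries (0.69, SE 0.08). The chaperone genes Canx (0.47, SE 0.07) and Calr (0.36, SE 0.07) rose as well. Of 6 ubiquitin and ubiquitin-activating genes 1 rose and 2 fell (50.0%, near the 43.7% of all tested genes). Ubb, a polyubiquitin gene, rose (0.46, SE 0.07), while Uba1, the main ubiquitin-activating enzyme gene, fell (-0.25, SE 0.07). The counts of Ubb are not whole numbers, so its reads were divided with other genes. The call on Uba1 was lost with library size, FPKM or TPM as the scale and without either shMettl3 library.

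Because METTL3 methylates adenosines in contexts such as GGACT, these letters were counted in the longest protein-coding transcript of each tested gene in GENCODE M21. The median was 1.195 per kilobase over the 49 members and 1.045 per kilobase over 10851 tested genes. Across the members, Pearson's r between this density and the log2 fold change was -0.02 and Spearman's rho was 0.10, and across all 10851 genes they were -0.03 and -0.06. Genes are not independent replicates, they share the same 4 libraries, and a match in the letters is not a methylated site.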

How the data were processed

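The deposited table covers 14435 genes. Per the file headers it gives every library a column of estimated counts, another of FPKM and another of TPM. The submitters' processing notes name HISAT2 2.0.4, Bowtie2 2.2.5, RSEM 1.2.12 and mm9, with no role given. Deposited estimated counts are not whole for 12.5% of genes and were rounded. According to the protocols in the labels, synthesis of cDNA began at poly(A) tails and PCR followed, with no step that marks strand and no molecular identifiers named, so reads are not independent molecules. The groups come from the sample titles.

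The main test was edgeR 4.0.16's robust quasi-likelihood test (R 4.3.3) on the group, after filterByExpr (minimum count 10, minimum total 15) and TMM, with Benjamini-Hochberg adjustment over 11035 genes. It has 2 residual degrees of freedom. CPM values use TMM factors. SE was obtained by dividing the fitted log2 change by the root of the F statistic. The 1.5-fold test was glmTreat. Alternatives used DESeq2 1.42.0, limma 3.58.1, other scalings and filters, a replicate block and fits without each library. FPKM and TPM were tested on log2(value + 1). The procedure was tried on simulated data with the same dispersion for every gene and no shift between replicates. That does not show its error rate on these data. Chi-square over its degrees of freedom between replicates was 4.23 (shMettl3) and 11.7 (Control), so neither pair agrees within sampling noise.

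Members, roles and lists were chosen with earlier results of these data known. Named were Mettl3, the immunoproteasome and its counterparts, the other activators and inhibitor, the remaining called members with the largest changes (at most 6 in each direction), members below the filter and the 3 largest called changes of each list. Psmc2 and Psmd5 and the uncalled members given by name were added afterwards. Some genes that this rule names are not reported here.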

Additional observations from a re-analysis of the deposited data

How the results depend on the processing

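Of the 14 called members, 6 (Psma4, Psma5, Psma6, Psma8, Psmd4 and Psme1) were called in all 15 alternative fits, and none of the 14 changed sign. Of the 35 uncalled members 21 changed sign in some fit. The median of the members minus that of all tested genes, added after the data were seen, stayed between -0.11 and -0.08. The immunoproteasome median minus that of the other members was 0.31 to 0.32 in all fits on 4 libraries. With a library left out it was 0.06 to 0.55. Other scalings shift all genes nearly alike and could hardly change either of these differences. Causes were not tested.

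Leaving out 1 library at a time gave 3095 to 5324 calls over all genes (1503 to 2543 higher, 1592 to 2781 lower). Members called higher were 3 to 6 and lower 3 to 16. Members past a 1.5-fold change were 0 to 1 higher and 0 to 2 lower. Immunoproteasome members called higher were 1 to 2 and lower 0 to 1. Associated factors were 1 to 4 higher and 2 to 6 lower, regulators 1 to 4 higher and 1 to 3 lower, class I genes 3 to 6 higher and 0 to 1 lower, and ubiquitin genes 1 to 2 higher and 0 to 3 lower. The log2 ratio difference was 0.41 to 0.95 for Psmb8 over Psmb5, -0.59 to 0.17 for Psmb9 over Psmb6 and -0.02 to 0.62 for Psmb10 over Psmb7. Psmb10 was -0.03 (without Control replicate 2) to 0.48, Psme2 -0.14 to 0.01 (without shMettl3 replicate 2), and Psme4 -0.19 to 0.05 (without Control replicate 1, and 0.01 without shMettl3 replicate 1).

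With library size alone 4 members were lower and 7 higher, with FPKM 5 lower and 7 higher, and with TPM (either pseudocount, 1 or 0.1) 4 lower and 10 higher. Over all genes the counts were 3266 higher and 1832 lower with library size, 2976 and 1712 with FPKM, 3510 and 1505 with TPM at a pseudocount of 1 and 3506 and 1498 at 0.1. The number of 19S subunits below 0, added after the data were seen, was 8 with TPM. Immunoproteasome members called higher were 2 with library size, upper-quartile factors, FPKM and TPM. Associated factors were 6 higher and 2 lower with library size, 5 and 2 with FPKM, 7 and 2 with TPM, and 2 were lower in DESeq2 and with upper-quartile factors. Regulators called higher were 5 with TPM. Class I genes called lower were 0 with library size, upper-quartile factors, FPKM and TPM, and ubiquitin genes called lower were 0 with library size, FPKM and TPM. Among uncalled genes, Psme2 was 0.03 with library size, 0.00 with FPKM and 0.06 with TPM. Psmb6 was 0.01 with library size and 0.04 with TPM, Psmb7 0.02 with library size, 0.00 with FPKM and 0.06 with TPM, and Psme4 0.03 with library size, 0.03 with FPKM and 0.08 with TPM.

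With the replicate number as a block 7 members were higher and 13 lower, with 5116 calls over all genes. In this fit 3 immunoproteasome members were called higher and 1 lower, 4 regulators were higher and 2 ubiquitin genes were higher. Psmb8 (0.28, adjusted p = 0.00610), Psmb10 (0.23, adjusted p = 0.0268) and Psmb9 (-0.30, adjusted p = 0.0299, all by edgeR's quasi-likelihood test) gained calls. The labels give the numbers no meaning, the deviations of same-numbered libraries correlate at 0.15 over genes, and there are 2 pairs, so these numbers are not taken as pairing the libraries.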
